A study of Mus musculus with 6 samples.

Results

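Serotonin and dopamine signalling is represented here by 9 genes chosen by name: the synthesis enzymes Tph2 and Th, the transporters Slc6a4 and Slc6a3, and the receptors Htr1a, Htr2a, Drd1, Drd2 and Drd4. For each gene, every CpG cytosine listed in all 6 libraries within the gene or within 1 kb of either end was taken, on GRCm38, and a gene needed 3 or more. All 9 genes met this rule, with 490 of the 2206320 cytosines used in all and 9 of 17342 gene regions. DNA methylation had been profiled in male mouse germ cells by reduced representation bisulfite sequencing (RRBS), in which DNA is fragmented by restriction digestion, treated so that unmethylated cytosine reads as T, and sequenced near the restriction sites. The groups are 3 libraries from germ cells of mice exposed to CSDS (chronic social defeat stress, repeated encounters with an aggressor) and 3 libraries from Control mice. The labels give no strain, age, germ cell stage or number of animals for either group, and nothing in them says that replicates are separate animals. The p-values given here therefore cover the spread between the deposited samples, which may be technical.

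Serotonin is made from tryptophan and dopamine from tyrosine, each by a pathway that opens with a hydroxylase, and each transmitter is removed from the synapse by its own transporter. Their receptors, nearly all coupled to G proteins, raise or lower signalling in the receiving cell, and some also sit on the releasing cell as brakes. These genes are known mainly for their work in neurons and are studied in stress and mood, and CpG-rich gene starts are commonly unmethylated whether or not the gene is active, while gene bodies are commonly methylated.

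The starts differ in what the method can read. The lines below give the RefSeq promoter windows (GRCm38.p6, 250 bases before to 50 after the transcription start) of 5 genes, written 5′ to 3′ on the gene's own strand, with each CpG that was read on at least one strand in all 6 libraries in capitals. They were chosen because 3 carry the start clusters described below, Drd4 has the most complete coverage, and the last has no CpG read in all 6 libraries.
Slc6a4: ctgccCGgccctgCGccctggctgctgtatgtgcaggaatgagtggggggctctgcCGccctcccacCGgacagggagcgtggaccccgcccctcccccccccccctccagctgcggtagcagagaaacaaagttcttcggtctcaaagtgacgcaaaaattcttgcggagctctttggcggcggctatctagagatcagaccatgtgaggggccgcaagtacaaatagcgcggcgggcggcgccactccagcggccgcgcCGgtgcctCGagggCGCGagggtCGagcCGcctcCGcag
Slc6a3: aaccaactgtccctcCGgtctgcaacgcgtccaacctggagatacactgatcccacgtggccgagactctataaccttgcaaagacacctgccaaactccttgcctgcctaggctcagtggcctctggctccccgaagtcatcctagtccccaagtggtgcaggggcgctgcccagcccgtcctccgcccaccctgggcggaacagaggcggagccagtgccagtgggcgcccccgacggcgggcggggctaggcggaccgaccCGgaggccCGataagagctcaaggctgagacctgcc
Drd2: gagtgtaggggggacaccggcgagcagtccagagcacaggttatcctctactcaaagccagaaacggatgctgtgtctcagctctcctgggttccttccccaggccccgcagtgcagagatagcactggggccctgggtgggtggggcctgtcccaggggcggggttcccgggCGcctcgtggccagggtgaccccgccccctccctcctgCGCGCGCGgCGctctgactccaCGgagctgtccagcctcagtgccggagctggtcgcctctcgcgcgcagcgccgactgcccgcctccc
Drd4: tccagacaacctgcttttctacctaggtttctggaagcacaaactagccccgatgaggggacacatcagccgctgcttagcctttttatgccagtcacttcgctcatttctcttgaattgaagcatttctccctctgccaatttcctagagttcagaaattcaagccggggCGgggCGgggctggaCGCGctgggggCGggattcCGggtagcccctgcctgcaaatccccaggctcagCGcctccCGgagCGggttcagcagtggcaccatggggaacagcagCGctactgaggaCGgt
Th: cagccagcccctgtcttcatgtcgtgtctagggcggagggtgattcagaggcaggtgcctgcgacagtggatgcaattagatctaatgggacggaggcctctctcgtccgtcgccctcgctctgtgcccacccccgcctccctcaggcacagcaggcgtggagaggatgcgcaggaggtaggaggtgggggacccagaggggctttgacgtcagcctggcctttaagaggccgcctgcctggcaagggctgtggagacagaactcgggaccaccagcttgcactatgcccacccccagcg
Slc6a4 lies on the plus strand at chr11:76998347-76998646, Slc6a3 on the plus strand at chr13:73536497-73536796, Drd2 on the plus strand at chr9:49340153-49340452, Drd4 on the plus strand at chr7:141291768-141292067, and Th on the minus strand at chr7:142899946-142900245. Of their CpGs, 11 of 28 were read in all libraries in Slc6a4, 3 of 20 in Slc6a3, 7 of 23 in Drd2, 11 of 15 in Drd4 and 0 of 15 in Th. The motif CCGG, the site of the enzyme MspI that RRBS commonly uses, reads the same on both strands and was counted in each window. It occurred 3 times in Slc6a4, Drd2 and Drd4, 2 times in Slc6a3 and Drd1, 1 time in Htr1a and Htr2a, and not at all in Th and Tph2. Of 27025 RefSeq promoter windows of the same 300 bases, 52.6% hold at least 1 CCGG. Among the other windows, Htr1a had 1 of 7 CpGs read in all libraries, and Tph2 (9 CpGs), Drd1 (23 CpGs) and Htr2a (6 CpGs) had none.

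Each library listed 2420308 to 3156788 cytosines with a median coverage of 44 to 50 reads. Over all cytosines used, the mean level was 42.6%, 39.5% and 39.7% in CSDS replicates 1 to 3, against 43.2%, 43.4% and 43.1% in Control replicates 1 to 3. At 27 mitochondrial CpG cytosines, where little methylation is usually found, the median share read as C was 8.50%, 4.41% and 4.53% in CSDS replicates 1 to 3, against 8.90%, 8.84% and 10.04% in Control replicates 1 to 3. CSDS replicates 2 and 3 therefore stood apart from the other 4 libraries in DNA outside the nucleus as well, and the part of this in the differences given here was not tested beyond the corrected values. A value described below as corrected divides the unmethylated share by 1 minus that mitochondrial share, library by library. Where the nuclear level is below the mitochondrial share, the corrected level is below 0, which no real level can be. At the 13 Slc6a3 cytosines at +14 to +185 it was -2.06%, -2.08% and -1.75% in CSDS replicates 1 to 3, against 9.45%, -2.41% and -0.606% in Control replicates 1 to 3. Corrected values at low levels can thus remove too much. Starts of 9 germline genes, which are unmethylated in germ cells and methylated in most somatic cells, averaged 10.5% to 16.7% in CSDS libraries and 14.2% to 20.8% in Control libraries. Their median was 14.4% in CSDS libraries and 17.4% in Control libraries, above the median of 10.5% for all start windows over the 6 libraries. The stretch 2 to 5 kb upstream of H19, methylated on the paternal copy, read 93.7% to 95.8% in CSDS libraries and 95.5% to 99.3% in Control libraries over 4 cytosines.

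None of the 9 gene regions was called different between CSDS and Control at an adjusted p under 0.05 with 10 points or more (percentage points, CSDS minus Control), where 0.0% of all 17342 regions were called (0 regions, lowest adjusted p 0.104, 6468 regions at an unadjusted p under 0.05). That is the quasi-binomial F test, and limma on logit levels also called 0 regions. The mean was lower in CSDS libraries in 6 of 9 gene regions, with a median difference of -1.98 points, beside a median of -3.71 points and 90.8% lower over all regions. In 3 of 9, Htr1a, Drd1 and Slc6a3, all CSDS libraries lay below all Control libraries, a pattern seen in 38.8% of all regions. No region was higher in all CSDS libraries, which 0.473% of all regions were. An unadjusted p under 0.05 was found in 2 of 9, Htr1a and Slc6a3, beside 37.3% of all regions. After the mitochondrial correction the mean was lower in CSDS libraries in 5 of 9, beside 69.9% of all regions, and only Slc6a3 kept its groups apart, beside 16.4% of all regions lower. With each cytosine weighted equally it was lower in 8 of 9, beside 94.7%. These shares rest on 9 genes, several lie close to the background, and whether they differ from it was not tested.

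**Figure D1:**
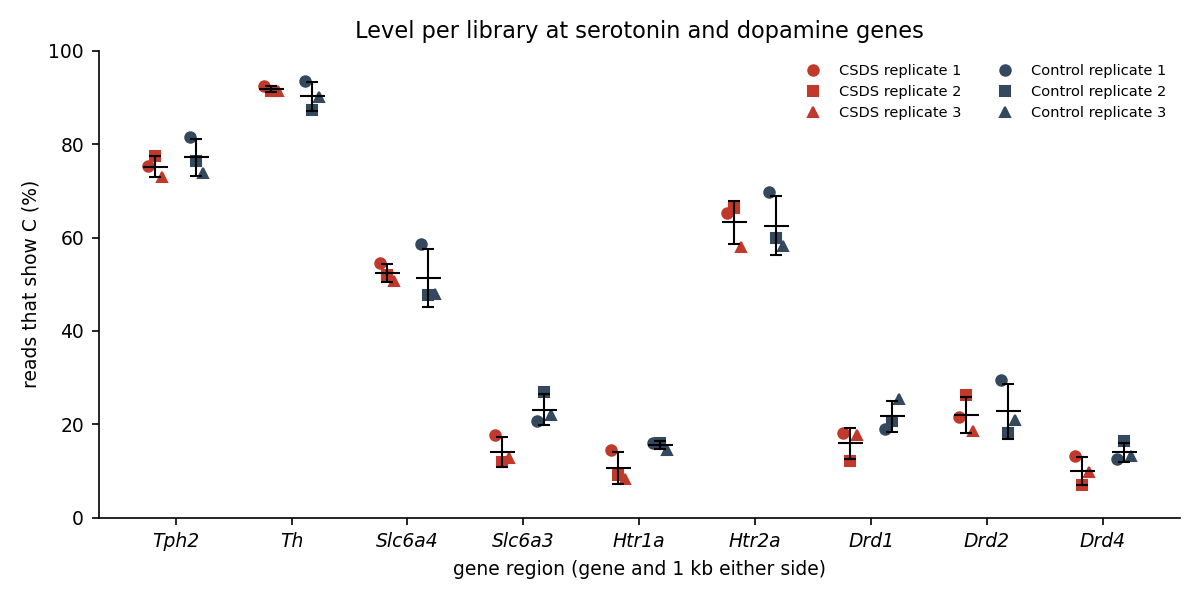
Level of each gene region in each library, as the percent of reads at its cytosines that show C (y axis), for 9 genes (x axis), with 3 CSDS libraries in red left of 3 Control libraries in blue; long bars are group means and whiskers the SD (n = 3 each). Th and Tph2 sit highest, the transporter Slc6a3 and the receptors other than Htr2a sit under 30% in every library, and the groups are apart in Slc6a3, Htr1a and Drd1.

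**Figure D2:**
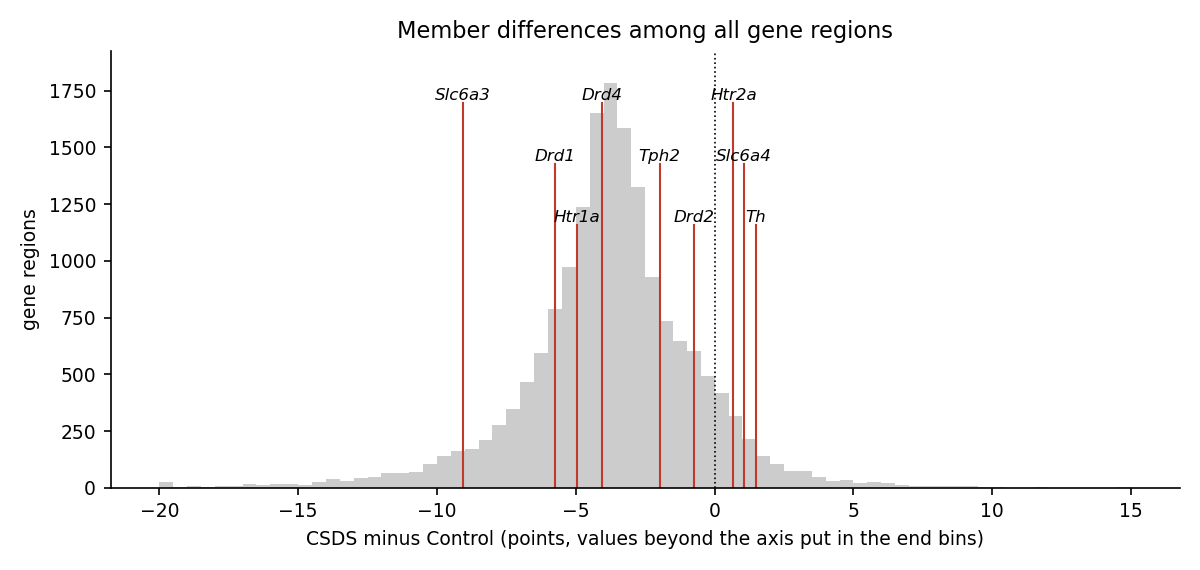
Number of gene regions (y axis) by CSDS minus Control difference in points (x axis) for all 17342 regions in grey, with the 9 genes as red lines. Slc6a3 lies toward the low end, with 5.17% of regions below it, and Th, Slc6a4 and Htr2a lie to the right of 0, where 96.2%, 95.1% and 93.9% of regions are below them.

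The gene regions fell into high, mixed and low ones. By Control mean the order was Th (90.3% ± 3.11), Tph2 (77.2% ± 3.90), Htr2a (62.6% ± 6.24), Slc6a4 (51.4% ± 6.23), Slc6a3 (23.2% ± 3.25), Drd2 (22.8% ± 5.86), Drd1 (21.7% ± 3.29), Htr1a (15.6% ± 0.901) and Drd4 (14.1% ± 2.03; SD, n = 3 each). Slc6a3, Drd2 and Drd1 were within one another's spread, as were Htr1a and Drd4. A region's level follows which of its fragments were read, since the rule takes in 17 cytosines for Th and 104 for Drd4. The 95% Wilson interval of 1 library's region level was between 0.601 and 2.42 points on either side, for counting error only, since no molecular identifiers are named and reads may be copies of 1 molecule. In Th, where it was 1.58 to 2.39 points, it was wider than the SD of the CSDS libraries (0.628 points), and in Htr1a (0.911 to 1.37 points) it was wider than the SD of the Control libraries (0.901 points). A half-width at 95% is larger than a standard error, so in Htr1a this does not place counting error above the spread between libraries.

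Tph2 encodes the tryptophan hydroxylase of neurons, which sets the rate of serotonin synthesis. Over its region (chromosome 10, 115078641 to 115185022, minus strand, 40 cytosines), 75.2%, 77.4% and 72.9% of reads showed C in CSDS replicates 1 to 3, against 81.5%, 76.3% and 73.8% in Control replicates 1 to 3. The groups overlapped, with a difference of -1.98 points and an adjusted p of 0.606. No cytosine within 1 kb of its start was read in all libraries. Of its 8 clusters (runs of 3 or more cytosines with neighbours at most 200 bp apart), 7 lay between +11262 and +99519 from the start and averaged over 80% in both groups.

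The Tph2 cluster nearest the start was the exception. At 115175610 to 115175675, positions +9347 to +9412 from the start, 24.5%, 15.4% and 14.1% of reads showed C in CSDS replicates 1 to 3, against 18.2%, 21.6% and 22.3% in Control replicates 1 to 3. CSDS replicate 1 was the highest of all 6 libraries and the other CSDS libraries were the lowest. The difference was -2.72 points, or 0.374 points after the mitochondrial correction. Its 6 cytosines hold 2 CpGs whose strands differ by over 50 points. The largest difference among Tph2 clusters, -5.51 points at +33805 to +33842, came with 92.8%, 77.6% and 96.3% in CSDS replicates 1 to 3, against 95.6%, 93.4% and 94.2% in Control replicates 1 to 3. One library, CSDS replicate 2, made that difference, which was 0.150 points without it. At +75401 to +75559 the level was 86.6% to 95.2% in CSDS libraries and 87.3% to 98% in Control libraries over 3 cytosines.

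Th encodes tyrosine hydroxylase, which sets the rate of synthesis of dopamine and the other catecholamines, and it was the most methylated of the 9 genes. Its region (chromosome 7, 142892779 to 142899995, minus strand, 17 cytosines) read 92.5%, 91.5% and 91.4% in CSDS replicates 1 to 3, against 93.5%, 87.3% and 90.03% in Control replicates 1 to 3. The CSDS libraries lay inside the Control range, with a difference of 1.48 points and an adjusted p of 0.759. Every one of the 17 cytosines averaged over 80%. Its clusters read 88.2% to 93.0% in CSDS libraries and 83.7% to 95.1% in Control libraries at +5881 to +5940, 95.7% to 98.2% in CSDS libraries and 89.3% to 100% in Control libraries at +3400 to +3548, and 82.9% to 86.7% in CSDS libraries and 84.5% to 93.2% in Control libraries at +898 to +1044, with overlap in all 3. Even the 3 cytosines in the window of 1 kb around the start, all downstream of it, read 84.5%, 85.2% and 81.8% in CSDS replicates 1 to 3, against 85.7%, 80.2% and 94.1% in Control replicates 1 to 3. None of the 15 CpGs in the promoter sequence above was read in all 6 libraries, so these values do not describe that promoter.

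Slc6a4 encodes the serotonin transporter, the target of the selective reuptake inhibitors. Its region (chromosome 11, 76998597 to 77032343, plus strand, 96 cytosines) read 54.6%, 51.9% and 50.8% in CSDS replicates 1 to 3, against 58.6%, 47.8% and 47.9% in Control replicates 1 to 3. The groups overlapped, and the sign depended on the weighting: 1.04 points with reads summed (adjusted p 0.845) and -1.94 points with each cytosine weighted equally (adjusted p 0.208). The region joins a low start with a high body, so a library with more reads in the body scores higher.

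Read apart, the start of Slc6a4 was low and the 3′ end high. Within 1 kb of the start, 38 cytosines read 11.6%, 7.53% and 7.37% in CSDS replicates 1 to 3, against 15.1%, 12.2% and 12.5% in Control replicates 1 to 3. All CSDS libraries lay below the Control libraries, by -4.40 points on average (adjusted p 0.140), and after the mitochondrial correction the groups overlapped with a difference of -1.16 points. In the promoter printed above, 16 cytosines outside CCGG read 3.63% ± 2.51 in CSDS libraries and 6.05% ± 1.35 in Control libraries (SD, n = 3 each). The cluster upstream of the start, 40 cytosines at -1230 to -908, read 12.7%, 6.86% and 8.22% in CSDS replicates 1 to 3, against 15.9%, 11.98% and 12.6% in Control replicates 1 to 3, with CSDS replicate 1 inside the Control range. Only 14 of these 40 cytosines lie within 1 kb of the gene, and the others fall outside its region. In the body, at +18344 to +18431, 7 cytosines read 91.9%, 95.98% and 95.1% in CSDS replicates 1 to 3, against 95.8%, 98.3% and 97.7% in Control replicates 1 to 3. The 3′ end, at +33537 to +33796, read 96.6% to 98.3% in CSDS libraries and 96.9% to 97.6% in Control libraries.

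One low stretch lay inside the methylated body of Slc6a4. At 77006661 to 77006899, positions +8064 to +8302, 9 cytosines read 31.3%, 19.7% and 17.7% in CSDS replicates 1 to 3, against 23.2%, 26.4% and 22.2% in Control replicates 1 to 3. CSDS replicate 1 was the highest library there and the other CSDS libraries the lowest. The clusters on either side, at +6157 to +6276 and +10719 to +10841, were over 89% in every library. The stretch lies within the lncRNA gene Gm12343 (77005339 to 77009873), so it cannot be assigned to Slc6a4 alone.

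Slc6a3, which encodes the dopamine transporter, had the largest difference of the 9 gene regions. Its region (chromosome 13, 73536128 to 73578672, plus strand, 55 cytosines) read 17.7%, 11.9% and 12.8% in CSDS replicates 1 to 3, against 20.7%, 26.9% and 22.0% in Control replicates 1 to 3. The 2 groups did not overlap, with CSDS libraries below Control by -9.07 points on average, -6.50 points after the mitochondrial correction, and -5.42 points with cytosines weighted equally. The quasi-binomial F test gave p = 0.00665 and an adjusted p of 0.104 over all regions, so it was not called. Without CSDS replicate 1, the CSDS library with a mitochondrial share like that of the Control libraries, the difference was -10.9 points with an adjusted p of 0.00484, and it was called along with 6.63% of all regions. Taken alone, CSDS replicate 1 was -5.50 points from the mean of the Control libraries, or -5.29 points corrected.

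The level of Slc6a3 was low around the start and high at +1394 to +1466. The clusters at -551 to -234 and at +14 to +185 averaged under 20% in both groups. At +523 to +596 the level was 26.7% to 30.2% in CSDS libraries and 29.4% to 31.9% in Control libraries, and at +1394 to +1466 it was 92.8% to 98.8% in CSDS libraries and 94.9% to 96.4% in Control libraries. Without CpGs whose strands differ by over 20 points, a pattern described further on, the cluster at +523 kept fewer than 3 cytosines. Its level is thus a mix of strands that disagree. At +14 to +185, next to the start, 13 cytosines read 6.61%, 2.42% and 2.85% in CSDS replicates 1 to 3, against 17.5%, 6.64% and 9.49% in Control replicates 1 to 3. CSDS replicate 1 lay just below the lowest Control library, with a mean difference of -7.25 points and an adjusted p of 0.221. The size depended on thinly read cytosines and on 1 library: it was -2.42 points at a coverage minimum of 20, -4.11 points without Control replicate 1 and -4.11 points after the mitochondrial correction. At -551 to -234, 33 cytosines read 11.3%, 8.07% and 6.60% in CSDS replicates 1 to 3, against 11.1%, 18.3% and 12.8% in Control replicates 1 to 3. The groups overlapped there, and the difference was -5.39 points. No cluster differed by as much as the whole region. CSDS libraries had more reads than Control libraries in the low cluster at +14 (499, 1034 and 736 in CSDS replicates 1 to 3, against 337, 286 and 316 in Control replicates 1 to 3) and fewer in the high cluster at +1394 (234, 161 and 208 in CSDS replicates 1 to 3, against 270, 352 and 247 in Control replicates 1 to 3). The reads-summed value of -9.07 points therefore also holds this mix of reads, and the equally weighted value was -5.42 points.

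The gene regions whose 6 library values lay closest to those of Slc6a3, by summed absolute difference, were Zfp78 (3.75 points over 6 libraries), Brix1 (4.71 points) and Med20 (5.39 points).

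Htr1a encodes a serotonin receptor that inhibits its cell and serves as the autoreceptor of serotonin neurons. Its region (chromosome 13, 105443693 to 105448133, plus strand, 44 cytosines) read 14.50%, 9.11% and 8.24% in CSDS replicates 1 to 3, against 16.1%, 16.1% and 14.54% in Control replicates 1 to 3. The highest CSDS library lay just under the lowest Control library, and the difference was -4.96 points (p = 0.0428, adjusted p 0.125 by the quasi-binomial F test). After the mitochondrial correction the groups overlapped, with -1.84 points. The cluster at +44 to +378 followed the region, with 15.4%, 9.57% and 10.8% in CSDS replicates 1 to 3, against 17.0%, 17.8% and 16.2% in Control replicates 1 to 3. Without CpGs whose strands differ by over 20 points, a pattern described further on, the same cluster read 3.67% ± 2.29 in CSDS libraries and 6.84% ± 0.723 in Control libraries (SD, n = 3 each), so much of its level came from those CpGs. The largest difference, -5.73 points at +2783 to +2863, rests on 3 cytosines that read 28.4%, 23.3% and 13.8% in CSDS replicates 1 to 3, against 26.7%, 27.2% and 28.8% in Control replicates 1 to 3. CSDS replicate 1 lay inside the Control range and CSDS replicate 3 was far the lowest, and without CSDS replicate 3 the difference was -1.72 points. Upstream, at -943 to -897, 6 cytosines read 16.4%, 17.7% and 15.6% in CSDS replicates 1 to 3, against 22.6%, 23.2% and 17.8% in Control replicates 1 to 3, apart by a narrow margin. Without the CpGs whose strands disagree, neither this cluster nor the one at +2783 kept 3 cytosines.

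Htr2a encodes an excitatory serotonin receptor, the main target of the classical psychedelics. Its region (chromosome 14, 74640874 to 74706859, plus strand, 22 cytosines) read 65.3%, 66.4% and 58.1% in CSDS replicates 1 to 3, against 69.7%, 59.8% and 58.2% in Control replicates 1 to 3. The groups overlapped, and the difference changed sign with the weighting, 0.677 points with reads summed and -4.24 points with cytosines weighted equally. The cluster nearest the start, at +1003 to +1050, read 16.2%, 15.02% and 15.7% in CSDS replicates 1 to 3, against 20.8%, 19.3% and 18.0% in Control replicates 1 to 3. All CSDS libraries were lower there, by -3.75 points, or -0.752 points after the mitochondrial correction, with an adjusted p of 0.544. Its level mixes strands that disagree: at +1004 the minus strand averaged 75.1% in CSDS and 94.1% in Control libraries, and the plus strand 5.61% and 3.29%. Without CpGs whose strands differ by over 20 points, the cluster kept fewer than 3 cytosines. The 3′ cluster, at +65529 to +65780, read 83.6%, 86.0% and 72.8% in CSDS replicates 1 to 3, against 83.0%, 81.7% and 84.8% in Control replicates 1 to 3. Only CSDS replicate 3 was low there, and without it the difference was 1.62 points. In between, at +37048 to +37195, the level was 93.1% to 93.9% in CSDS libraries and 89.4% to 95.3% in Control libraries over 3 cytosines.

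Drd1 encodes the D1 receptor, which raises cyclic AMP. Its region (chromosome 13, 54051183 to 54055658, minus strand, 27 cytosines) read 18.1%, 12.2% and 17.7% in CSDS replicates 1 to 3, against 19.1%, 20.7% and 25.4% in Control replicates 1 to 3. The groups were apart by a narrow margin, with -5.74 points, or -2.95 points after the mitochondrial correction, and an adjusted p of 0.205. The start cluster, at +249 to +475, read 14.4%, 7.97% and 11.5% in CSDS replicates 1 to 3, against 15.3%, 14.8% and 18.7% in Control replicates 1 to 3. The 3′ cluster, at +3947 to +4118 and with only 109 to 303 reads per library, read 13.9%, 15.9% and 21.1% in CSDS replicates 1 to 3, against 18.4%, 11.6% and 10.1% in Control replicates 1 to 3. All 3 CSDS libraries were lower at the start, while at the 3′ end the groups overlapped with a difference of 3.61 points (7.26 points corrected, 1.54 points without CSDS replicate 3, 6.13 points without Control replicate 1 and 1.97 points without Control replicate 3). Drd1 was thus low at both ends, unlike Slc6a4, whose 3′ end was over 96% in every library.

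Drd2 encodes the D2 receptor, which lowers cyclic AMP, is an autoreceptor of dopamine neurons and is the main target of antipsychotic drugs. Its region (chromosome 9, 49340360 to 49408177, plus strand, 85 cytosines) read 21.5%, 26.2% and 18.6% in CSDS replicates 1 to 3, against 29.4%, 18.2% and 20.9% in Control replicates 1 to 3. The groups overlapped, with -0.727 points as deposited and 2.31 points after the mitochondrial correction. Its start cluster, 60 cytosines at -77 to +483, read 12.7%, 9.90% and 8.13% in CSDS replicates 1 to 3, against 15.2%, 11.3% and 12.3% in Control replicates 1 to 3. CSDS replicate 1 lay inside the Control range, and the difference was -2.68 points, or 0.678 points corrected. Just upstream, at -398 to -311, 3 cytosines read 4.44% to 12.6% in CSDS libraries and 6.83% to 13.2% in Control libraries.

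The smallest p of the 41 clusters in the 9 genes was that of the next Drd2 cluster, at +717 to +994. Its 11 cytosines read 12.8%, 12.9% and 13.2% in CSDS replicates 1 to 3, against 17.3%, 17.9% and 19.7% in Control replicates 1 to 3. The 3 CSDS libraries were nearly equal and all lay below the Control libraries, by -5.32 points as deposited and -2.39 points corrected. The quasi-binomial F test, moderated as in limma, gave p = 0.00643 and an adjusted p of 0.214. It was the only one of the 41 clusters apart and lower after the correction, beside 7.61% of all clusters. Without the CpGs whose strands disagree, 7 cytosines read 5.91%, 5.85% and 3.41% in CSDS replicates 1 to 3, against 7.81%, 5.29% and 11.1% in Control replicates 1 to 3, and the groups overlapped. In the body, at +44409 to +44523, 3 cytosines read 94.4%, 91.8% and 92.1% in CSDS replicates 1 to 3, against 91.1%, 76.1% and 90.9% in Control replicates 1 to 3. This was the only cluster of the 41 higher in all CSDS libraries, beside 1.95% of all clusters (3.4% after the correction, under which it stayed apart), and its 6.74 points were 1.79 points without Control replicate 2.

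Drd4 encodes the D4 receptor, a relative of D2. Its region (chromosome 7, 141291974 to 141296464, plus strand, 104 cytosines) read 13.1%, 7.11% and 9.74% in CSDS replicates 1 to 3, against 12.5%, 16.4% and 13.3% in Control replicates 1 to 3. CSDS replicate 1 lay inside the Control range, and the difference was -4.05 points, or -0.819 points corrected, with an adjusted p of 0.141. The downstream part of the promoter printed above lies in a cluster at -78 to +95 that read 13.7%, 9.12% and 10.1% in CSDS replicates 1 to 3, against 12.2%, 15.03% and 14.0% in Control replicates 1 to 3. A second cluster, 79 cytosines in the gene at +1819 to +2692, read 12.9%, 6.64% and 9.61% in CSDS replicates 1 to 3, against 12.6%, 16.9% and 13.0% in Control replicates 1 to 3. CSDS replicates 2 and 3 were the lowest libraries in both. Drd4 was thus low well into its body, while the Slc6a3 cluster at +1394 to +1466 was over 90% in every library.

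In the windows of 1 kb around the start, 7 genes had 3 or more cytosines, and the mean was lower in CSDS libraries in 7 of 7, by -2.79 to -6.13 points, beside 96.3% of all 10904 start windows. In 4 of 7, Htr1a, Slc6a4, Drd1 and Slc6a3, the groups did not overlap, beside 41.4% of start windows. None was called, and 0.0% of all windows at gene ends were (0 of 18221, 34.3% at an unadjusted p under 0.05). After the mitochondrial correction only Slc6a3 kept its groups apart, at 2.29%, 2.18% and 1.27% in CSDS replicates 1 to 3, against 3.29%, 8.91% and 2.57% in Control replicates 1 to 3, beside 8.26% of start windows. At the other end 3 genes were measured, and none had its groups apart.

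Among clusters, 32 of 41 were lower in CSDS libraries, with a median of -2.47 points beside -1.59 points and 72.2% lower over all clusters. Groups were apart and lower in 7 of 41, or 17.1%, beside 15.4% of all clusters, and none was called, as 0.0% were overall (0 of 146577). An unadjusted p under 0.05 was found in 9 of 41, beside 14.2% of all clusters. Of 14 clusters under 20% in Control 13 were lower, with a median of -4.34 points, beside 95.3% lower and a median of -3.54 points over all such clusters. In 6 of these 14 the groups were apart, beside 34.6%. All 5 clusters from 20% to 80% were lower, with a median of -2.72 points, beside 79.5% lower and -3.33 points over all such clusters. Corrected, 2 of these 5 were lower, with a median of 0.152 points, beside 62.5% lower and -1.23 points over all such clusters. Of 22 clusters over 80% in Control, 14 were lower, with a median of -0.621 points, beside 63.6% lower and -0.706 points over all, none was apart and lower, beside 9.44%, and 1 was apart and higher, beside 2.69%. After the mitochondrial correction 25 of 41 were lower, beside 59.2% of all clusters.

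**Figure D3:**
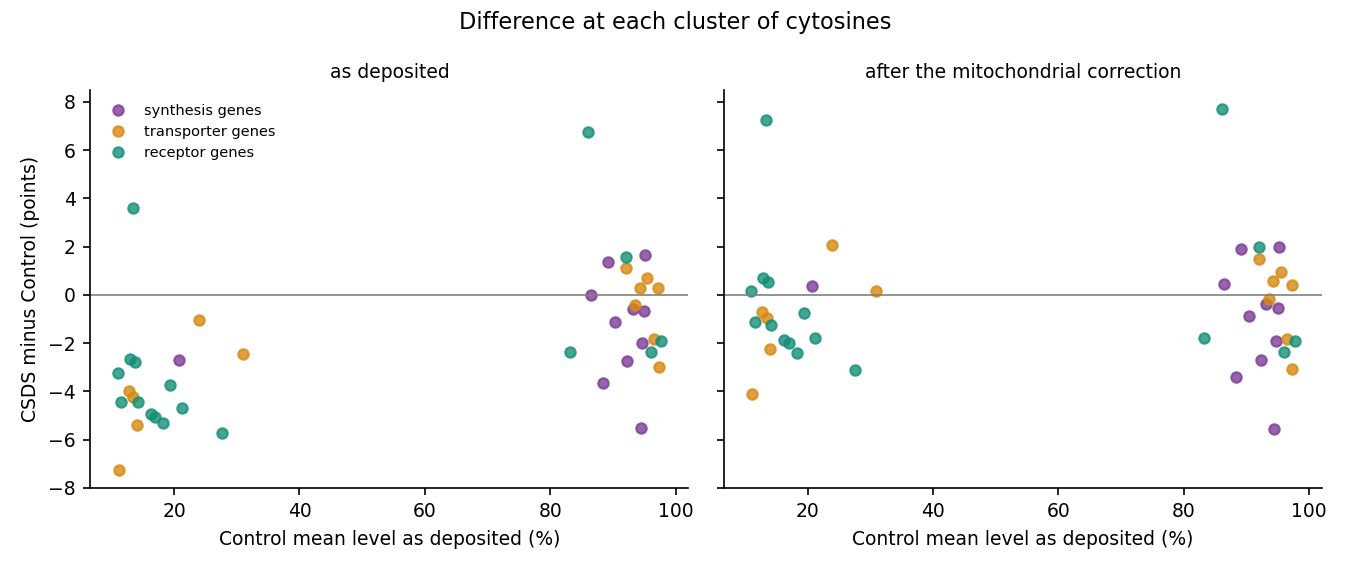
CSDS minus Control difference in points (y axis) of the 41 clusters against the Control mean level as deposited in percent (x axis), as deposited on the left and after the mitochondrial correction on the right; colours mark synthesis, transporter and receptor genes. Under 20% 13 of 14 clusters lie below 0 on the left, against 10 of 14 on the right, and over 80% the clusters scatter around 0 on both sides.

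Single cytosines were mostly low or high: of 490, 295 averaged under 20%, 40 from 20% to 80% and 155 over 80%. No cytosine of the 9 genes was called, as 0.0% were of 2182877 tested (0 cytosines). An unadjusted p under 0.05 was found at 70 of 484 tested in the 9 genes, beside 10.8% of all, and the lowest adjusted p among the 9 genes was 0.134. The mean was lower in CSDS libraries at 347 of 490 and higher at 137, beside 67.9% lower of all cytosines. The groups were apart and lower in 60 of 490, or 12.2%, beside 10.5% of all cytosines, and apart and higher in 9, or 1.84%, beside 1.73%. After the mitochondrial correction 28 were apart and lower and 28 apart and higher, with no corrected share over all cytosines given here. The lowest p belonged to a Slc6a4 cytosine upstream of the start, at 76997620, with 34.8%, 15.7% and 23.3% in CSDS replicates 1 to 3, against 43.3%, 52.2% and 50% in Control replicates 1 to 3. The whole cluster around it read 6.86% to 12.7% in CSDS libraries and 11.98% to 15.9% in Control libraries.

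Next to the start of Slc6a3, a pair of minus-strand cytosines was near 0 in CSDS libraries. At +65, 0%, 1.05% and 0% of reads showed C in CSDS replicates 1 to 3, against 15%, 23.1% and 27.3% in Control replicates 1 to 3. At +129 the values were 0%, 4.26% and 0% in CSDS replicates 1 to 3, against 35%, 14.3% and 18.2% in Control replicates 1 to 3. The groups did not overlap at either (adjusted p 0.159 and 0.155). On the plus strand of the same CpGs they did: 4.76%, 6.90% and 2.82% in CSDS replicates 1 to 3, against 9.09%, 17.6% and 0% in Control replicates 1 to 3 at the first, and 14.3%, 0% and 0% in CSDS replicates 1 to 3, against 27.3%, 0% and 6.25% in Control replicates 1 to 3 at the other. A count of 0 in CSDS replicates 1 and 3 allows up to 6.52% and 5.36% at +65, while the Control values rest on as few as 13 reads. They were picked as the 2 cytosines of lowest p in the gene, so their size is a description.

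The strands of a CpG usually carry the same methylation, and this was compared after the data were seen. Of 198 CpGs of the 9 genes read on both strands, 35 (17.7%) had strands over 20 points apart on average over the 6 libraries, and 31 of them over 50 points. Th had none among 6, Htr1a 7 of 16 and Drd2 7 of 29. In all promoter windows, where the sequence is known, strands were over 20 points apart in 63.7% of CpGs within CCGG and in 0.0832% of the others. Cytosines in CCGG averaged 35.2% ± 2.35 in CSDS libraries and 39.2% ± 0.5002 in Control libraries, while those outside averaged 5.32% ± 2.36 in CSDS libraries and 8.67% ± 0.198 in Control libraries (SD, n = 3 each). Within these windows the disagreement was nearly confined to CpGs in CCGG. Whether bases filled in at fragment ends were removed is not given in the sources used here, and the cause was not tested.

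In the Slc6a4 promoter, the 6 cytosines in CCGG read 25.8%, 23.8% and 20.2% in CSDS replicates 1 to 3, against 33.0%, 33.2% and 31.2% in Control replicates 1 to 3, far above the 16 others. Of the 18 cytosines of lowest p, 2 per gene, 14 were apart and lower in CSDS libraries and 1 was apart and higher, in Th at +5907, with 100%, 90% and 93.8% in CSDS replicates 1 to 3, against 84.6%, 81.6% and 87.5% in Control replicates 1 to 3. Over all cytosines 10.5% were apart and lower and 1.73% apart and higher. Picking by lowest p favours separated groups, so the counts among the 18 follow from the selection. The adjusted p of the 18 ran from 0.134 to 0.508 by the quasi-binomial F test. Of the 18, 3 lie in CpGs whose strands differ by over 20 points: 1 in Htr2a and 2 in Drd2, among them the largest difference of any cytosine in the 9 genes, -28.6 points at +482 in Drd2. Leaving out every CpG with strands over 20 points apart gave -9.35 points for the Slc6a3 region, -5.92 for Drd1 and -4.00 for Htr1a. The Drd2 region turned to 0.351 points. With the mitochondrial correction as well, the values were -6.75 points for Slc6a3, -3.02 for Drd1, -0.522 for Htr1a and 3.55 for Drd2.

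**Figure D4:**
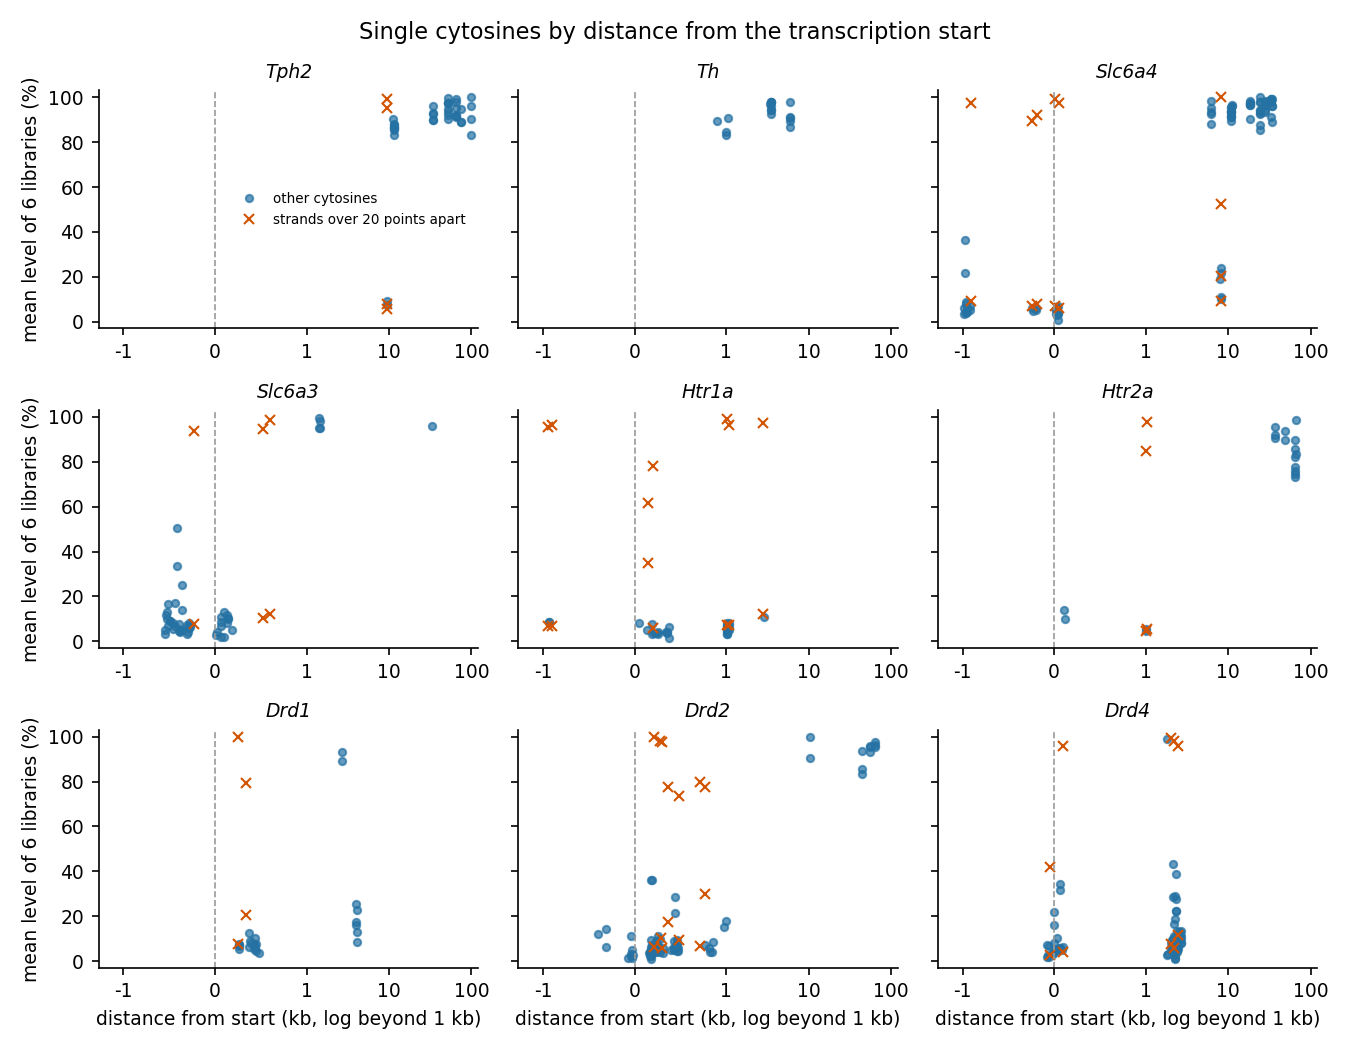
Mean level of the 6 libraries in percent (y axis) of each of the 490 cytosines by distance from the transcription start in kb (x axis, linear within 1 kb and logarithmic beyond), 1 panel per gene; orange crosses are cytosines of CpGs whose strands are over 20 points apart. Most cytosines near starts are low apart from the crosses, except in Th, and most in bodies are high. Htr1a near 1 kb, Drd1 at its 3′ end, Drd4 in its body, and Tph2 and Slc6a4 at 1 stretch each are low away from the start.

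Of 34 other genes of the 2 pathways, receptors, enzymes, vesicle transporters and transcription factors of serotonin or dopamine neurons, 33 were measured. None was called, 29 were lower in CSDS libraries, with a median of -3.66 points, beside 90.8% lower and -3.71 points over all regions. In 11, or 33.3%, the groups were apart and lower, beside the 38.8% of all regions. After the mitochondrial correction 23 were lower, with a median of -0.836 points, and 2 had their groups apart and lower, beside 16.4%. The largest differences were those of Spr, which makes the tetrahydrobiopterin that both hydroxylases need (7.42% ± 1.23 in CSDS libraries and 15.1% ± 4.29 in Control libraries, -7.64 points, corrected -4.71 points), Pitx3, a transcription factor of dopamine neurons (11.9% ± 3.65 in CSDS libraries and 18.1% ± 0.972 in Control libraries, -6.26 points, corrected -3.32 points), and Lmx1b, a transcription factor of both kinds of neuron (21.2% ± 2.49 in CSDS libraries and 27.0% ± 1.72 in Control libraries, -5.80 points, corrected -3.19 points). The highest were Maoa, which breaks both transmitters down, at 3.88 points, the receptor Htr2b at 2.01 points, and Dbh, which turns dopamine into noradrenaline, at 0.245 points. With cytosines weighted equally Maoa was at -1.46 points and Htr2b at -1.29 points. Tph1, the tryptophan hydroxylase outside the brain, read 93.6% ± 0.808 in CSDS libraries and 93.5% ± 1.46 in Control libraries (SD, n = 3 each), high as in Th and most of Tph2.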

How the data were processed

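Per the labels' protocols, germ cell DNA came from a Qiagen DNeasy Blood & Tissue extraction, and a Zymo-Seq RRBS kit was used for the libraries. Trim Galore 0.5.0, Bismark 0.20.0 and GRCm38 are named in the submitters' processing notes. Per the file headers, each deposited table gives a cytosine's position and strand, the count of reads covering it, and the percent showing C or T. Percent times coverage was whole to within 1e-06, so methylated counts were taken from them. No deposited coverage is under 10. Handling of duplicates and the conversion rate are not given in the sources used here.

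Of 3348459 cytosines, 2210988 were listed in all 6 libraries, and 4668 with a coverage among the highest 0.1% in a library were left out, none of them in the 9 genes. Reads were summed per gene region, window (1 kb to each side of a gene's end), cluster and cytosine. Group was tested in a binomial logistic model over all features of a kind. Its quasi-binomial dispersion was moderated as in limma and held at 1 or above. An F test with Benjamini-Hochberg adjustment followed (Python 3.11.15, numpy 2.4.6, scipy 1.17.1). Only the test on logit levels, which shares the moderation, was compared with limma 3.58.1. The quasi-binomial F test was run on simulated regions, windows and clusters, not on simulated cytosines. Gene bounds and promoters are RefSeq's for GRCm38.p6, with no exons. An exact permutation test of 3 against 3 libraries cannot go below p = 0.1.

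All 9 genes are named, each with the cluster nearest the start and the 3 of largest difference. The 2 cytosines of lowest p per gene are given as a set, with values for a few. Other values were chosen after they were seen. The genes and lists were chosen with earlier results of these data known.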

Additional observations from a re-analysis of the deposited data

How the results depend on the processing

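Counts of called features changed where CSDS replicate 1 was left out: leaving out each library in turn gave 0 to 1150 gene regions, 0 to 287 end windows, 0 to 1728 clusters and 0 cytosines, against 0 of each with all 6 libraries. Called cytosines numbered 3 at a coverage minimum of 20, 492 with no coverage cap and 1 without CpGs whose strands disagree (an alternative added after the data were seen), and 16 end windows were called by limma on logit levels. With the replicate number as a block, 0 features of each kind were called. The deviations of same-numbered libraries from their group means correlated at -0.225, -0.290 and 0.0783, and their levels over gene regions at 0.991, 0.978 and 0.989. The deviations gave no sign of pairing, but with 3 libraries per group they cannot settle whether same-numbered libraries belong together.

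Some directions turned. With the mitochondrial correction the values were 2.31 points for the Drd2 region and, by distance of the first cytosine from the start, 0.374 for Tph2 at +9347, 0.165 and 0.678 for Drd2 at -398 and -77, 0.518 for Drd4 at -78 and 0.152 for Slc6a3 at +523. Equal weighting gave -4.24 for Htr2a and -1.94 for Slc6a4, leaving out CpGs whose strands disagree gave -1.06 for Htr2a and 0.351 for Drd2, and a coverage minimum of 20 gave -0.343 for Th at +3400. Without CSDS replicates 2 and 3 (added after the data were seen, no test) the values were 0.785 for Htr1a at +2783 (-5.73 with all libraries), 0.404 for Htr2a at +65529, 3.75 for Tph2 at +9347 and 1.58 for Drd2 at -398.

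Leaving out 1 library at a time gave -1.52 to 4.25 points for Htr2a, -0.787 to 4.64 for Slc6a4, -3.68 to 0.146 for Tph2, -3.06 to 2.56 for Drd2 and -0.00124 to 3.10 for Th. For clusters it gave -4.96 to 1.62 for Htr2a at +65529, -9.20 to 0.150 for Tph2 at +33805 (-5.51 with all libraries), -5.61 to 0.107 for Tph2 at +75401, -1.36 to 4.37 for Th at +5881 and -1.26 to 4.06 for Th at +3400. The Htr1a, Drd1, Drd4 and Slc6a3 regions stayed below 0 in all 15 alternatives run, between -10.9 and -0.819 points. Most regions were below 0 too: 90.8% of all regions as deposited, 69.9% after the mitochondrial correction and 94.7% with equal weighting. Of the 9 regions 4 to 9 were lower over the leave-one-out alternatives, and of the 41 clusters 30 to 33. Shares over all features are not given for the leave-one-out alternatives, so these counts have no background. The causes were not tested. Depth limits single cytosines most, some with 11 to 20 reads in a library.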

Other observations

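Over the whole data set, 72790 CpGs read on both strands (8.06%) had strands over 50 points apart. Their higher strand averaged 90.4% ± 2.95 in CSDS libraries and 94.8% ± 0.740 in Control libraries, and their lower strand 10.02% ± 1.91 in CSDS libraries and 13.0% ± 0.522 in Control libraries (SD, n = 3 each), with a median coverage of 25 reads on the higher strand and 70 on the lower. CpGs with strands over 20 points apart hold 202100 of the cytosines used (9.16%). No explanation was tested.

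At the start of Peg3, a maternally methylated imprint, the levels were 22.4%, 11.4% and 14.6% in CSDS replicates 1 to 3, against 16.6%, 19.9% and 16.7% in Control replicates 1 to 3, over 9 cytosines. CSDS replicate 1 was the highest library and the other CSDS libraries the lowest, as at the low stretches inside Tph2 and Slc6a4.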
